A study of Homo sapiens with 24 samples.

Results

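U251 cells, an established human glioblastoma line, were compared after 24 h with G-1 at 1 µM and after 24 h with G-1 at the lower IC50 dose. G-1 is an agonist of GPER, the G-protein-coupled estrogen receptor. The comparison holds 8 of the 24 one-colour arrays of the series, 4 per dose, chosen by the dose and the duration in the sample titles. The IC50 dose had been derived from a cell viability assay after 72 h, so 24 h falls before the time at which it was set. The vehicle group of the same duration, DMSO for 24 h (0.1% in the labels, where the methods give another concentration), and both doses at 72 h, each with 4 arrays, were used only to place the difference. Cells of all these groups, vehicle included, had been kept without steroid hormones in charcoal-stripped serum before treatment. The duration entry of the labels contradicts the titles and source names for the IC50 arrays of 24 h and for the 1 µM arrays of 72 h. Titles were followed, so every value at 24 h for the IC50 dose or at 72 h for 1 µM rests on them. Replicates were independent experiments on 1 cell line.

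Astroglial markers were present only in part. Of 18 astroglial and glioma genes, 11 were well above background on all 8 arrays, among them GFAP, VIM, NES and SOX2, and 5 (AQP4, SLC1A2, ALDH1L1, OLIG2 and PROM1) were above it on none. Of 16 markers of other cell types, 9 were above background on none and 5 on all 8 (VWF, RBFOX3, SYT1, SNAP25 and MBP). GPER1, which encodes the target of G-1, was above background on all 8 arrays, while the nuclear estrogen receptor genes ESR1 and ESR2 were above it on none. GPER1 lay at 2.41, 2.69, 2.84 and 2.55 on the IC50 arrays and at 2.33, 2.23, 2.68 and 2.34 on the 1 µM arrays, with a difference of -0.23 ± 0.10 (SE, adjusted p = 0.076). It was called lower with quantile normalization (adjusted p = 0.028), the 50th percentile (0.018), cyclic loess (0.023), normexp (0.0093) and the replicate block within each duration (0.040), and without replicate 3 of 1 µM (0.014) or replicate 1 of the IC50 dose (0.030). All this was read from its brightest probe. Dimmer GPER1 probes differed by 0.0046 (adjusted p = 0.98) and -0.13 (adjusted p = 0.52). Those levels, as all levels here, are log2 intensities relative to the 75th percentile of the array, and differences are 1 µM minus IC50 in log2 units unless another pair is named.

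All 4 arrays of 1 µM lay on the third slide, scanned in a second session, whereas those of the IC50 dose lay on the first slide (replicates 2 and 3) and the second (replicates 1 and 4). Dose and session therefore cannot be told apart here. The DMSO arrays of 24 h lay on the first slide (replicates 1, 3 and 4) and the second (replicate 2), in the session of the IC50 arrays. Comparisons of the IC50 dose with DMSO thus stay within a session, and those with 1 µM do not. At least 38.3% of the spots were well above background on each 1 µM array, fewer than on any IC50 array, where the share was between 41.6% and 44.5%. Tests were therefore run on the 19857 probes that passed this detection flag in all 8 hybridizations, which gave 13020 genes with a symbol, each read from its brightest probe. The median difference over these genes was 0.06. It was -0.10 with the 50th percentile as the reference and -0.07 with scaling to 7 spike-in controls, a shift of the whole distribution that small differences do not exceed.

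Dividing cells enter mitosis when cyclin B with CDK1 becomes active, which the kinases PLK1 and AURKA and the cofactor BORA promote. Exit follows once CDC20 directs the anaphase-promoting complex to its substrates, after the spindle checkpoint is satisfied. Transcripts of these genes peak together in G2 and mitosis, from promoters rich in CCAAT boxes and in the element called CHR. G-1 has also been described as an agent that disturbs microtubules, and cells lower their tubulin transcripts when free tubulin rises. Growth factor signals through ERK raise early transcription factors and, with them, Sprouty proteins and dual-specificity phosphatases that damp the same signal. Sterol and fatty acid genes are driven by the SREBP factors.

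At an adjusted p under 0.05 alone, 2622 of 13020 genes were higher at 1 µM (20.1%) and 1028 were lower (7.90%). Of all these calls 71.8% were higher, against 20.6% with the 50th percentile, 20.1% with spike-in scaling, 45.0% with normexp background correction, 53.9% with cyclic loess, 57.9% with quantile normalization and 85.4% without the filter on dim probes. With a fold change above 2 required as well, 29 genes were higher (0.223%) and 45 lower (0.346%), or 39.2% higher. That share was 15.6% with the 50th percentile, 21.6% with spike-in scaling, 23.3% with normexp and 22.1% with a filter on any 1 group, but 75.3% without a filter. Of the same genes 32 were higher (0.246%) and 5 lower (0.0384%) at the IC50 dose than with DMSO. Those 2 groups shared their slides and scanning session, unlike the 2 doses. The part of the session in this contrast of counts was not tested.

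Most mitotic genes rose at 1 µM over the IC50 dose, where 20.1% of all tested genes were higher and 7.90% lower. In 3 lists for mitotic entry, for the spindle checkpoint with chromosome segregation and for mitotic kinesins, 84 of 86 genes were tested, 64 were higher, 0 were lower and 83 had a positive difference. Their median difference was 0.54, and their median at the IC50 dose against DMSO was -0.06. In that second comparison, all within the first scanning session, 0 of them were called. Among all tested genes 0.246% were higher there and 0.0384% lower. Between the doses, groups of arrays did not overlap for 58 of the 84, where 20.4% of all tested genes were higher without overlap and 7.76% lower. With spike-in scaling 7 of 26 mitotic entry genes, 6 of 46 checkpoint and segregation genes and 2 of 13 kinesins were still called. Of all 13020 tested genes 70 were higher with that scaling. The list medians with it were 0.48, 0.37 and 0.56, beside 0.62, 0.50 and 0.69 without it. With the 50th percentile 18 of the 46 were called, and 392 of all tested genes were higher. In bulk RNA a larger share of cells in G2 or mitosis and more transcript in each cell cannot be told apart.

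PLK1, the polo-like kinase of mitotic entry, lay at 2.91, 2.77, 2.49 and 2.30 on the IC50 arrays and at 3.86, 3.70, 3.56 and 3.27 on the 1 µM arrays. Its groups did not overlap, with a difference of 0.98 ± 0.15 (SE, adjusted p = 0.00015). AURKA, Aurora kinase A, went from 4.54, 4.51, 4.18 and 4.26 to 5.66, 5.75, 5.64 and 5.28, a difference of 1.21 ± 0.12 (SE, adjusted p = 4.5e-06). Every 1 µM array of these kinases was above every IC50 array, and their IC50 arrays lay within or close to the range of DMSO. BORA, the cofactor through which AURKA activates PLK1, rose from 0.97, 1.23, 0.69 and 0.85 to 2.13, 2.20, 1.90 and 1.65, by 1.03 ± 0.13 (SE, adjusted p = 2.4e-05). CCNB1, cyclin B, rose from 6.36, 6.39, 6.06 and 5.97 to 7.40, 7.29, 7.19 and 6.90, by 1.00 ± 0.12 (SE, adjusted p = 1.1e-05). In all 4 genes replicate 4 was the lowest 1 µM array, as it was in PLK1 and CCNB1 at the IC50 dose. CCNA2, cyclin A, rose by 1.03 ± 0.11 (SE, adjusted p = 7.9e-06) and the spindle factor TPX2 by 0.87 ± 0.11 (SE, adjusted p = 3.4e-05), both without overlap.

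**Figure D1:**
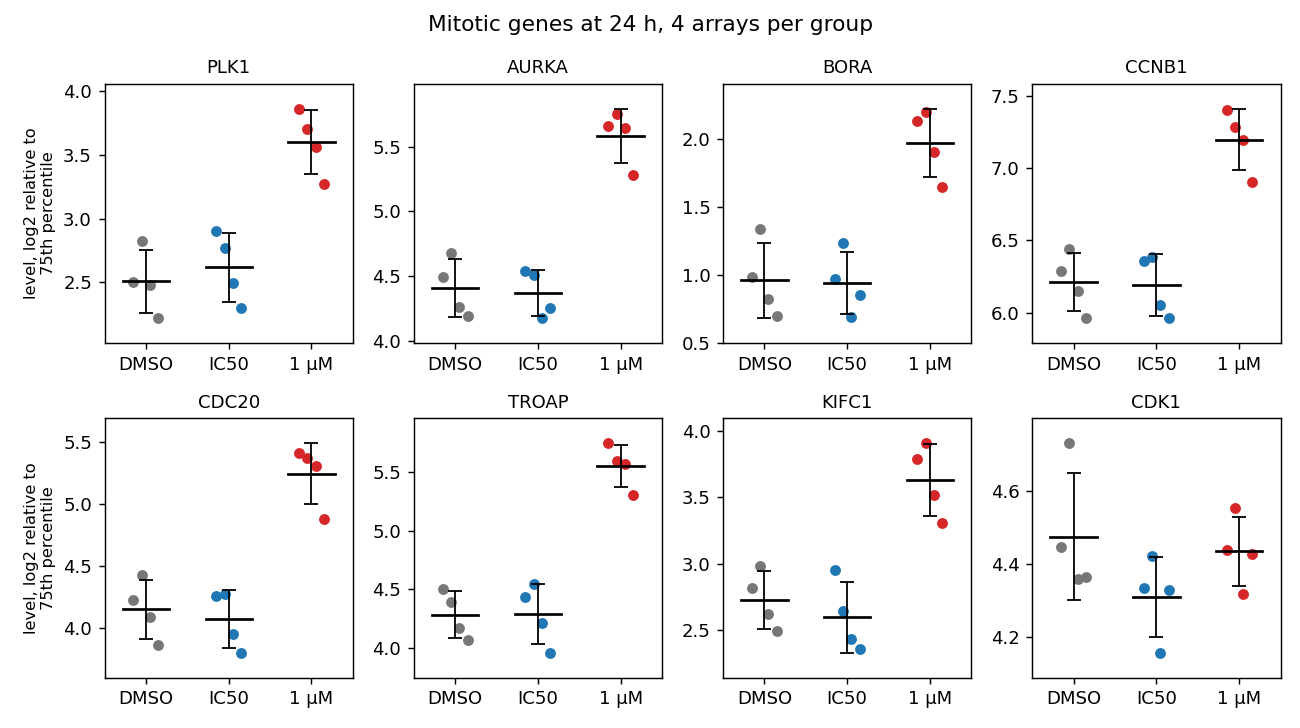
Levels of 8 mitotic genes at 24 h on 4 arrays each of DMSO, the IC50 dose and 1 µM, as log2 intensity relative to the array's 75th percentile. Points are arrays, horizontal bars means and vertical bars SD. In 7 genes all 1 µM arrays are above all others, and in CDK1, with a difference of 0.12 at its brightest probe, they overlap.

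Of the 46 tested genes for the checkpoint and chromosome segregation, 32 were higher, beside 20.1% of all tested genes. CDC20, the activator of the anaphase-promoting complex, went from 4.26, 4.27, 3.95 and 3.80 to 5.41, 5.37, 5.31 and 4.88, a difference of 1.18 ± 0.13 (SE, adjusted p = 7.9e-06). TROAP, a spindle-associated protein, went from 4.44, 4.54, 4.22 and 3.96 to 5.75, 5.59, 5.57 and 5.31, a difference of 1.27 ± 0.13 (SE, adjusted p = 4.5e-06). Both genes had groups far apart against the spread of 4 arrays. The checkpoint kinases TTK and BUB1B rose by 0.86 ± 0.12 (SE, adjusted p = 5.1e-05) and 0.81 ± 0.12 (SE, adjusted p = 7.4e-05), and CENPA, the centromeric histone, by 0.90 ± 0.13 (SE, adjusted p = 6.7e-05). Of 13 kinesins, the microtubule motors, 12 were higher, again beside 20.1% of all tested genes, with a list median of 0.69. KIFC1 rose by 1.03 ± 0.15 (SE, adjusted p = 8.6e-05) and KIF20A by 0.97 ± 0.15 (SE, adjusted p = 0.00011), while KIF22, KIF18A and KIF11 rose by 0.69, 0.76 and 0.58. KIF24, the member not called, had a difference of 0.21 (adjusted p = 0.19).

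The rise was not shared by all genes of the phase. Members below are named because they did not pass, after their values were seen. CDK1, the kinase partner of cyclin B, lay at 4.33, 4.42, 4.16 and 4.33 at the IC50 dose and at 4.44, 4.55, 4.32 and 4.43 at 1 µM, a difference of 0.12 ± 0.10 (SE, adjusted p = 0.36). That was its brightest probe. A much dimmer CDK1 probe, with a mean level of -2.02, rose by 1.41 (adjusted p = 0.00024), so the probes of this gene disagreed. UBE2C, the conjugating enzyme of the anaphase-promoting complex, differed by 0.10 ± 0.12 (SE, adjusted p = 0.56) and TOP2A, topoisomerase II alpha, by -0.16 ± 0.16 (SE, adjusted p = 0.49). The Aurora kinase AURKB differed by 0.25 (adjusted p = 0.14) and CENPF by 0.25 (adjusted p = 0.077). With the replicate number as a block CENPF passed (adjusted p = 0.038). FOXM1, a factor that drives many of these genes and also named after its value was seen, rose by 0.46 ± 0.09 (SE, adjusted p = 0.0011). Levels of CDK1 and UBE2C turned below the IC50 dose with the 50th percentile as reference, both by under 0.1.

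Promoter windows are shown for 6 of the genes that rose, with every CCAAT box and every TTTGAA, a form of the CHR core, in capitals. Either strand was searched, so that ATTGG and TTCAAA are their reverse forms. Other forms of the CHR were not searched for and may stand in lower case. Each window runs 120 bases, from 100 before the RefSeq start to 20 after it, in the direction of the gene, on GRCh38.p14. PLK1 lies on the plus strand at chr16:23678789-23678908, CCNB1 on plus at chr5:69167050-69167169, CDC20 on plus at chr1:43358881-43359000, CCNA2 on minus at chr4:121823864-121823983, KIFC1 on plus at chr6:33391723-33391842 and BORA on plus at chr13:72727823-72727942.
PLK1: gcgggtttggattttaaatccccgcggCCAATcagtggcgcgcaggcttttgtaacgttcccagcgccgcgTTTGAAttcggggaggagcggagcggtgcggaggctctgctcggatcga
CCNB1: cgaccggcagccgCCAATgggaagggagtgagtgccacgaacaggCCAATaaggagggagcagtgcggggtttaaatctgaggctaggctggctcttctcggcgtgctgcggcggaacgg
CDC20: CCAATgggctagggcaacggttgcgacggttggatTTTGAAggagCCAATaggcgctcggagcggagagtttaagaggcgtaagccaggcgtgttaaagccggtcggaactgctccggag
CCNA2: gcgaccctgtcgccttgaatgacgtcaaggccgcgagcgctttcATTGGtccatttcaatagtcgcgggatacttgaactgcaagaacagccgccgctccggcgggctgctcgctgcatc
KIFC1: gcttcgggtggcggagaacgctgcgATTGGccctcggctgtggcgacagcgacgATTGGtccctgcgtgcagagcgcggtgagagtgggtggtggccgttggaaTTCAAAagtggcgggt
BORA: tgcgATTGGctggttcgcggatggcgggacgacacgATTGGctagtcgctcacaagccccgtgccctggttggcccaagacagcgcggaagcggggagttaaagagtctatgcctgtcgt

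All 6 windows hold at least 1 CCAAT box, and PLK1, CDC20 and KIFC1 also hold TTTGAA. Over the 300 bases of each promoter in the RefSeq table, TTTGAA occurred in 36 of the 55 mitotic genes that rose and have an entry (65.5%) and in 11 of the 16 that were not called (68.8%). It occurred in 9.77% of the tested genes and in 15.4% of all promoters. CCAAT occurred in 72.7% of the mitotic genes that rose, in 62.5% of those not called, in 37.1% of the tested genes and in 35.7% of all promoters. The letters were thus frequent in the mitotic lists as a whole, with like shares in members that rose and members that were not called. In the 11 ERK feedback genes with an entry, TTTGAA occurred in 1 and the AP-1 letters TGACTCA in 0, where TGACTCA occurred in 3.15% of tested genes. AURKA has no entry in the table.

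The DNA replication and G1/S list rose less, with 22 of 50 genes higher, 1 lower and a median of 0.27. Of all tested genes 20.1% were higher and 7.90% lower, with a median of 0.06. CCND1, cyclin D1, lay at 2.45, 2.60, 2.67 and 2.27 at the IC50 dose and at 3.43, 3.49, 3.52 and 3.06 at 1 µM, higher by 0.88 ± 0.15 (SE, adjusted p = 0.00036). The replication factors GINS2, ORC6 and MCM10 rose by 0.57, 0.66 and 0.65. With the 50th percentile the list's count was 3 of 50, beside 392 of all 13020 tested genes. Without replicate 4 of the IC50 dose the list's count was 10. It was 11 without replicate 1 of 1 µM, 12 without replicate 2 of 1 µM and 14 without replicate 3 of the IC50 dose. CDKN3, a phosphatase of cyclin-dependent kinases that peaks with mitotic genes, rose by 0.66 (adjusted p = 0.00065).

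ERK feedback genes were higher at 1 µM as well. Of 17 tested genes 14 were higher and 0 lower, beside 20.1% and 7.90% of all tested genes. The list's median was 0.76, beside a median of 0.06 for the IC50 dose against DMSO, 2 groups of the same scanning session. SPRY4, a Sprouty inhibitor of the ERK cascade, lay at -0.97, -0.61, -1.12 and -1.63 at the IC50 dose and at 0.47, 0.71, 0.26 and -0.19 at 1 µM, higher by 1.39 ± 0.20 (SE, adjusted p = 8.2e-05). SPRY1 rose from -0.25, -0.08, -0.36 and -0.53 to 1.15, 1.05, 0.88 and 0.67, by 1.24 ± 0.16 (SE, adjusted p = 3.6e-05). All 1 µM arrays of both genes were above all IC50 arrays. SPRY4-IT1, a noncoding transcript from within the SPRY4 locus, rose by 1.41 ± 0.31 (SE, adjusted p = 0.0022). The ETS factor ETV5 rose by 0.81 ± 0.11 (SE, adjusted p = 4.3e-05), the AP-1 subunit FOSL1 by 1.22 ± 0.18 (SE, adjusted p = 8.5e-05) and the ephrin receptor EPHA2 by 0.92 ± 0.15 (SE, adjusted p = 0.00023). IER3, an early response gene, went from -1.42, -1.41, -2.10 and -2.02 to 0.16, -0.12, -0.51 and -1.07, a difference of 1.35 ± 0.22 (SE, adjusted p = 0.00023). PHLDA1, named after its value was seen, was the 1 member with a negative difference, -0.21 (adjusted p = 0.12). With the 50th percentile 9 of the 17 were called, and 5 with spike-in scaling. Of all 13020 tested genes 392 and 70 were higher with these scalings.

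Of 24 early transcription factor genes 12 were higher and 2 lower, beside 20.1% and 7.90% of all tested genes. EGR1 lay at 2.47, 2.84, 2.43 and 2.10 at the IC50 dose and at 3.71, 3.63, 3.37 and 3.15 at 1 µM, a difference of 1.00 ± 0.24 (SE, adjusted p = 0.0044). MAFF rose by 1.03 ± 0.14 (SE, adjusted p = 5.5e-05) and KLF6 by 0.72 ± 0.14 (SE, adjusted p = 0.00073). ATF3, a stress-induced factor also picked after its value was seen, fell by 0.48 ± 0.14 (SE, adjusted p = 0.012) and BTG2, an antiproliferative gene, fell by 0.44 ± 0.11 (SE, adjusted p = 0.0039). ATF3 lost its call without replicate 1 of 1 µM (adjusted p = 0.050) and without replicate 2 of 1 µM (adjusted p = 0.052).

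The secreted factors LIF, ANGPTL4, HBEGF and EDN1 were among the 12 genes with the largest rise. HBEGF, a ligand of the EGF receptor, lay at 0.71, 0.76, 0.96 and 0.59 at the IC50 dose and at 2.52, 1.43, 2.30 and 1.85 at 1 µM, higher by 1.27 ± 0.17 (SE, adjusted p = 4.6e-05). LIF, an IL-6 family cytokine, went from 3.23, 3.74, 2.99 and 2.24 to 5.15, 4.97, 4.46 and 3.95, a difference of 1.59 ± 0.31 (SE, adjusted p = 0.00095). EDN1, endothelin, rose from 0.62, 0.79, 0.73 and 0.14 to 2.29, 1.82, 1.79 and 1.44, by 1.26 ± 0.23 (SE, adjusted p = 0.00055). None of these groups overlapped, and the IC50 arrays of HBEGF and EDN1 lay near those of DMSO. The chemokine CXCL2 rose by 1.01 ± 0.13 (SE, adjusted p = 3.7e-05), CXCL3 by 0.91 ± 0.18 (SE, adjusted p = 0.00086) and IL11 by 0.85 ± 0.13 (SE, adjusted p = 0.00013). In the cytokine list 7 of 14 tested genes were higher and 1 lower, beside 20.1% and 7.90% of all tested genes.

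MYC lay at 2.78, 3.11, 3.00 and 3.14 at the IC50 dose and at 4.01, 4.02, 3.96 and 3.77 at 1 µM, higher by 0.93 ± 0.15 (SE, adjusted p = 0.00017). Of 29 MYC and ribosome biogenesis genes 18 were higher and 0 lower, beside 20.1% and 7.90% of all tested genes, with a median of 0.30. The nucleolar genes NOP16, LYAR, RRP9 and GNL3 rose by 0.65, 0.54, 0.49 and 0.42, each without overlap. Counts in this list followed the scaling, with 3 of 29 called with the 50th percentile and 1 with spike-in scaling. Of all 13020 tested genes 392 and 70 were higher with these scalings. Genes that regulate apoptosis went both ways. BMF, which promotes apoptosis, fell by 1.07 ± 0.12 (SE, adjusted p = 7.9e-06), from between 0.37 and 0.49 to between -1.07 and -0.34. BCL2L11 fell by 0.60 ± 0.11 (SE, adjusted p = 0.00067) at its brightest probe. Dimmer BCL2L11 probes differed by -0.16 (adjusted p = 0.34) and 0.02 (adjusted p = 0.89). PMAIP1, BAK1 and BAD, also promoters of apoptosis, rose by 0.68, 0.41 and 0.34.

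**Figure D2:**
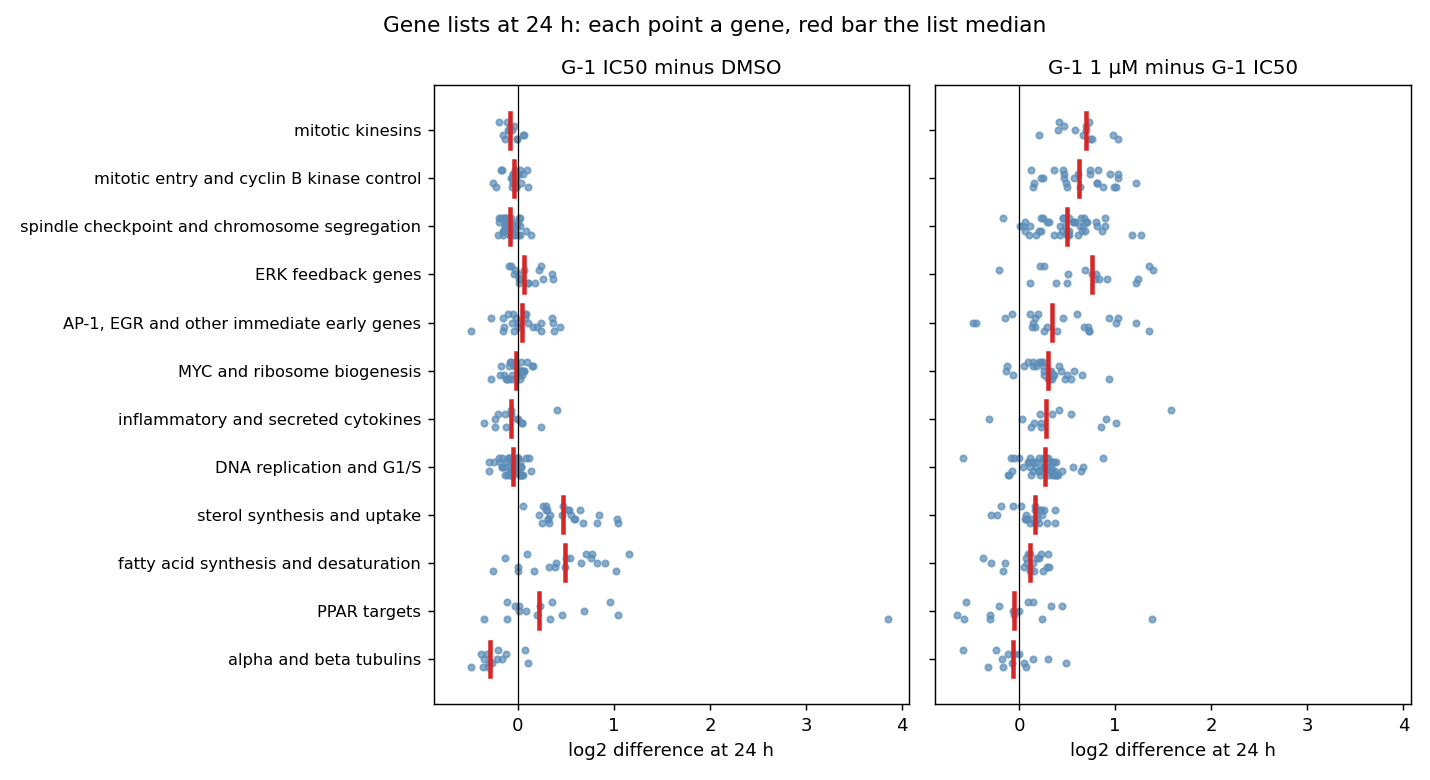
Log2 differences at 24 h of the tested genes in 12 lists, for the IC50 dose minus DMSO (left) and 1 µM minus the IC50 dose (right). Each point is a gene and each red bar the list median. The medians of the 3 mitotic lists and of the ERK feedback genes lie between 0.50 and 0.76 on the right, and on the left from -0.08 to 0.06, and those of the sterol and fatty acid lists are 0.47 and 0.49 on the left and 0.17 and 0.12 on the right. Both panels use the IC50 arrays, and only the right panel sets arrays of different scanning sessions against each other.

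Lipid genes stood in another order, with larger medians for the IC50 dose against DMSO than between the doses. Of 24 sterol genes 2 were higher at 1 µM than at the IC50 dose and 0 lower, beside 20.1% and 7.90% of all tested genes, with a median of 0.17. For the IC50 dose against DMSO their median was 0.47 and 3 were higher, beside 0.246% of all tested genes. For 1 µM against DMSO it was 0.55, with 18 higher and 0 lower, beside 22.0% and 10.0% of all tested genes. Between the doses 4 of the 24 were called with the replicate number as a block, and 6 with that block within each duration. With the 50th percentile, cyclic loess, normexp or spike-in scaling 0 were called. Leaving out 1 array gave 5 without replicate 3 of the IC50 dose, 3 without replicate 2 of 1 µM and 1 in 5 of the other 6 fits, and moved the median to between 0.037 and 0.25, the lowest without replicate 3 of 1 µM. SREBF1, which encodes SREBP-1, lay between 7.42 and 7.68 with DMSO, at 8.39, 8.62, 8.72 and 8.60 at the IC50 dose and at 8.31, 8.24, 8.47 and 8.63 at 1 µM. It was 1.02 ± 0.09 (SE, adjusted p = 7.7e-07) above DMSO at the IC50 dose, and 1 µM added -0.17 ± 0.09 (SE, adjusted p = 0.16). That difference was called lower with quantile normalization (adjusted p = 0.031), the 50th percentile (0.039), cyclic loess (0.0062) and normexp (0.0026), and without replicate 4 of 1 µM (0.048). STARD4, a sterol carrier, was 1.04 ± 0.16 (SE, adjusted p = 0.0016) above DMSO at the IC50 dose, and 1 µM added 0.06 ± 0.16 (SE, adjusted p = 0.81). For these genes the 95% interval of the dose difference ran from -0.35 to 0.02 in SREBF1 and from -0.27 to 0.39 in STARD4, so a smaller change with the dose was not detectable with 4 arrays a group.

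INSIG1 and LSS differed between doses by 0.24 (adjusted p = 0.28) and 0.29 (adjusted p = 0.23), and LSS was called once the replicate number entered as a block (adjusted p = 0.035). MVD differed by 0.17 (adjusted p = 0.69). FDFT1, squalene synthase, rose by 0.37 (adjusted p = 0.042), a call lost in 5 of the 8 fits that left out 1 array and in 10 of 17 other settings, with adjusted p up to 0.56 under spike-in scaling.

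Of 20 fatty acid genes 1 was higher and 1 lower between doses, and 2 were higher with the replicate number as a block. The list's median was 0.12, beside 0.49 for the IC50 dose against DMSO, where 7 genes were higher. For 1 µM against DMSO it was 0.55, with 13 higher and 1 lower, beside 22.0% and 10.0% of all tested genes. Among all tested genes 20.1% were higher and 7.90% lower between doses, and 0.246% were higher at the IC50 dose than with DMSO. FASN, fatty acid synthase, lay between 6.03 and 6.77 with DMSO, at 7.22, 7.45, 7.97 and 7.41 at the IC50 dose and at 7.55, 7.27, 8.03 and 8.11 at 1 µM, a dose difference of 0.23 ± 0.18 (SE, adjusted p = 0.36). FADS1, a desaturase, differed by 0.15 ± 0.13 (SE, adjusted p = 0.42) and had already risen by 0.91 (adjusted p = 0.00063) at the IC50 dose. The groups of both genes overlapped between doses. ACACB, the mitochondrial acetyl-CoA carboxylase, fell by 0.38 (adjusted p = 0.038), also lost in 5 of those 8 fits. MGLL, a lipase that splits monoacylglycerols, rose by 0.45 (adjusted p = 0.011) at its brightest probe and differed by 0.24 (adjusted p = 0.18) at a dimmer probe. ACSBG1 differed by -0.29 (adjusted p = 0.39).

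ANGPTL4, a secreted inhibitor of lipoprotein lipase, was above background on 0 of the 4 DMSO arrays, and was at least 9.37-fold higher at the IC50 dose and at least 24.5-fold higher at 1 µM. Its levels were 0.69, 0.60, -1.10 and -0.29 at the IC50 dose and 1.98, 2.20, 0.48 and 0.80 at 1 µM. The dose difference was 1.39 ± 0.50 (SE, adjusted p = 0.040), although the groups overlapped, and each 1 µM array was above the IC50 array of the same number. That call was lost without replicate 1 of 1 µM (adjusted p = 0.12), replicate 2 of 1 µM (0.13), replicate 3 of the IC50 dose (0.14) or replicate 4 of the IC50 dose (0.096), and with the slide as a random block (0.089), the 50th percentile (0.088), spike-in scaling (0.12), only the 8 arrays (0.058) or only those of 24 h (0.063), and the methods' t-test (0.15). Of 16 PPAR targets, ANGPTL4 included, 4 were higher and 3 lower, beside 20.1% and 7.90% of all tested genes. PDK4, which restrains pyruvate oxidation, lay between -1.76 and -1.36 with DMSO, at -0.72, -0.48, -0.97 and -0.09 at the IC50 dose and at -1.31, -1.10, -1.25 and -1.19 at 1 µM. It rose by 1.05 at the IC50 dose (adjusted p = 0.042) and fell by 0.65 between the doses (adjusted p = 0.031), the latter lost without replicate 1 or 3 of 1 µM or replicate 2 or 4 of the IC50 dose, and with normexp, the slide as a random block and spike-in scaling. ACAA2 and UCP3 fell by 0.31 and 0.56, and UCP2 and CPT1B rose by 0.45 and 0.33.

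**Figure D3:**
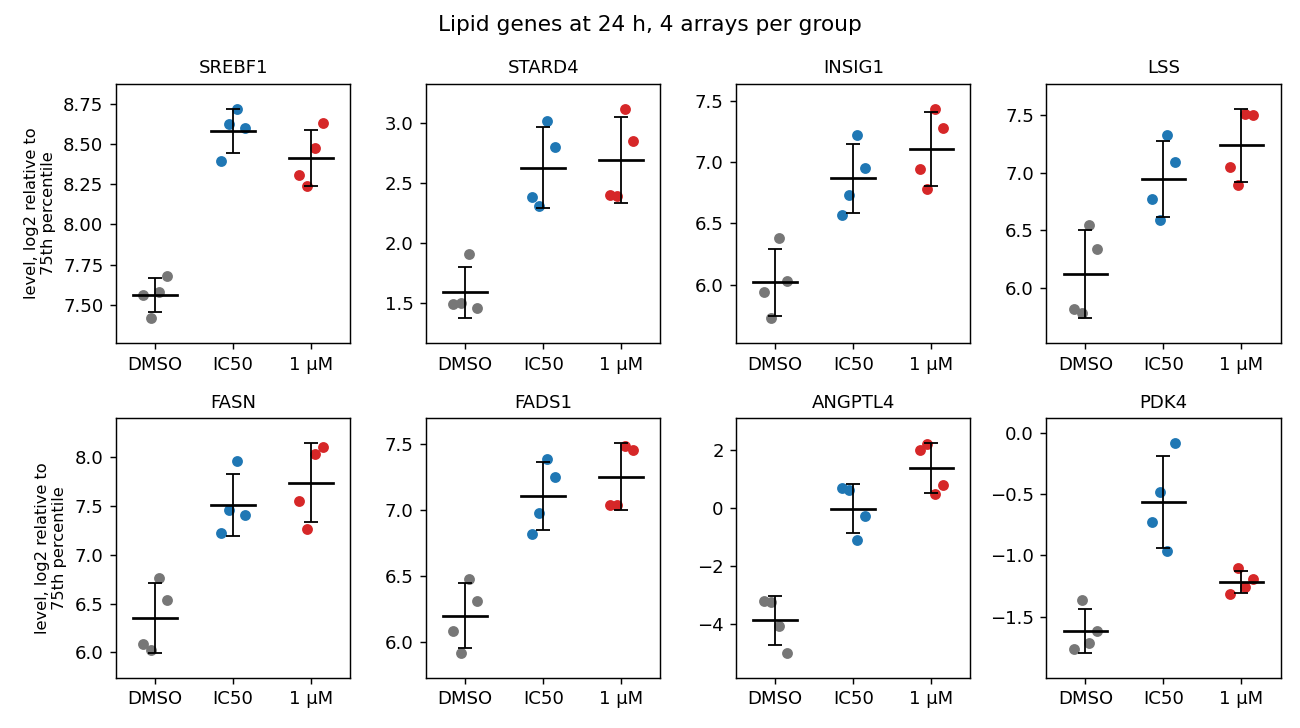
Levels of 8 lipid genes at 24 h on 4 arrays each of DMSO, the IC50 dose and 1 µM, as log2 intensity relative to the array's 75th percentile. Points are arrays, horizontal bars means and vertical bars SD. SREBF1, STARD4 and FADS1 are above DMSO at both doses with overlapping doses, and PDK4 is higher at the IC50 dose than at 1 µM. The DMSO points of ANGPTL4 are below the detection flag.

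Tubulin genes had no common direction between the doses. Of 14 tested genes for alpha and beta tubulin 2 were higher and 2 lower, beside 20.1% and 7.90% of all tested genes, with a median of -0.06. For the IC50 dose against DMSO their median was -0.28 and 3 were lower, beside 0.0384% of all tested genes. For 1 µM against DMSO it was -0.27, with 8 lower and 0 higher, beside 10.0% and 22.0% of all tested genes. TUBB, a main beta tubulin, lay between 6.92 and 7.02 with DMSO, at 6.76, 6.74, 6.49 and 6.57 at the IC50 dose and at 7.09, 7.01, 6.83 and 6.83 at 1 µM. It fell by 0.35 at the IC50 dose (adjusted p = 0.038) and was 0.30 higher at 1 µM than there (adjusted p = 0.0041), a call that cyclic loess, normexp, the 50th percentile and spike-in scaling did not keep. TUBB4B rose by 0.49 (adjusted p = 0.0018). TUBB2B, a neural beta tubulin, went from between 2.88 and 3.1 to 2.22, 2.53, 2.23 and 2.58, and fell by 0.58 ± 0.11 (SE, adjusted p = 0.0010). TUBA4A fell by 0.32 (adjusted p = 0.017), after a fall of the IC50 arrays below DMSO. The other 10 were not called: TUBA1A at 0.07, TUBA1B at 0.05, TUBA1C at -0.18, TUBA3C at -0.12, TUBA3D at -0.25, TUBA8 at -0.07, TUBB2A at -0.05, TUBB3 at -0.16, TUBB6 at 0.15 and TUBB8 at -0.00. TUBA1A and TUBA1B turned negative under other scalings, by at most 0.12 in size, and TUBA1C was called lower with quantile normalization (adjusted p = 0.0085), the 50th percentile (0.017), cyclic loess (0.0027) and normexp (0.0033). Tubulin genes are near copies of each other, and probes may read more than 1 of them.

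Many genes that were lower at 1 µM were noncoding or dim. Of the 45 past 2-fold, 29 are protein coding and 20 were among the dimmest 20% of genes, against 23 and 9 of the 29 that were higher. TRAF7, a ubiquitin ligase, lay at 1.11, -0.12, -0.03 and 1.19 at the IC50 dose and at -1.17, -1.92, -1.91 and -1.21 at 1 µM, a difference of -2.09 ± 0.45 (SE, adjusted p = 0.0020). FTHL17, a ferritin-like gene, lay at 5.71, 4.52, 4.78 and 5.93 and at 3.43, 3.55, 3.79 and 3.66. In these genes replicates 1 and 4 of the IC50 dose, which share the second slide, were about 1 log2 unit above replicates 2 and 3 on the first.

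The same split was seen in most of that set. In 31 of the 45 both second-slide arrays of the IC50 dose were above both first-slide arrays, as in 9.82% of all tested genes, and in those 31 the DMSO array on the second slide was also the highest of the 4 DMSO arrays. The median of the second slide minus the first was 0.72 in the lower genes, -0.13 in the 29 higher genes and -0.04 in all. Against the first-slide arrays alone the 45 had a median difference of -0.90, and 20 of them stayed beyond 2-fold, whereas against the second-slide arrays it was -1.43. For the 29 higher genes these medians were 1.13 and 1.22, with 25 and 27 beyond 2-fold, and for the 84 mitotic genes 0.53 and 0.58. The slides thus differed in these genes within the IC50 dose, and the part of this in their dose difference was not tested.

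**Figure D4:**
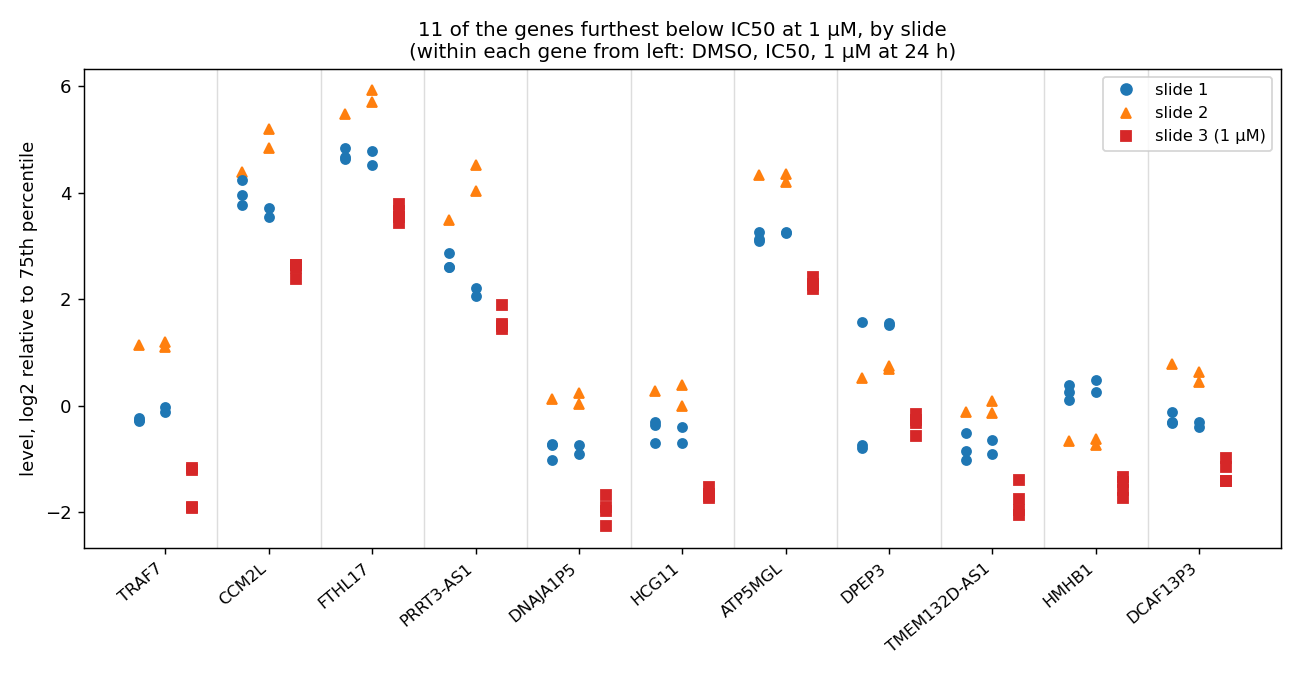
Levels of 11 of the 12 genes with the largest fall at 1 µM, as log2 intensity relative to the 75th percentile of the array, at 24 h for DMSO, the IC50 dose and 1 µM from left to right within each gene. Symbols mark the slide. In 9 of these 11 both IC50 arrays on the second slide lie above both on the first, and all 1 µM arrays are on the third slide.

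CCM2L, PRRT3-AS1, DNAJA1P5, HCG11, ATP5MGL, TMEM132D-AS1 and DCAF13P3 shared that order of slides, with differences of -1.76, -1.61, -1.61, -1.47, -1.47, -1.39 and -1.34. DPEP3 and HMHB1, with -1.45 and -1.37, had the opposite order, with the first slide higher. PRRT3-AS1 lost its call without replicate 1 of 1 µM (adjusted p = 0.062), replicate 2 of 1 µM (0.055), or replicate 1 (0.089) or 4 (0.12) of the IC50 dose, and DPEP3 without replicate 2 (0.052) or 3 (0.053) of the IC50 dose or replicate 2 of 1 µM (0.050). Other probes of the same genes were measured for only 4 of the 45 lower genes, with a median of -0.01 and 1 called the same way. For the higher genes 7 had other probes, with a median of 0.82, and all 7 had 1 called the same way. RBFOX3, a neuronal marker, was also among the lower genes, at -1.01.

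**Figure D5:**
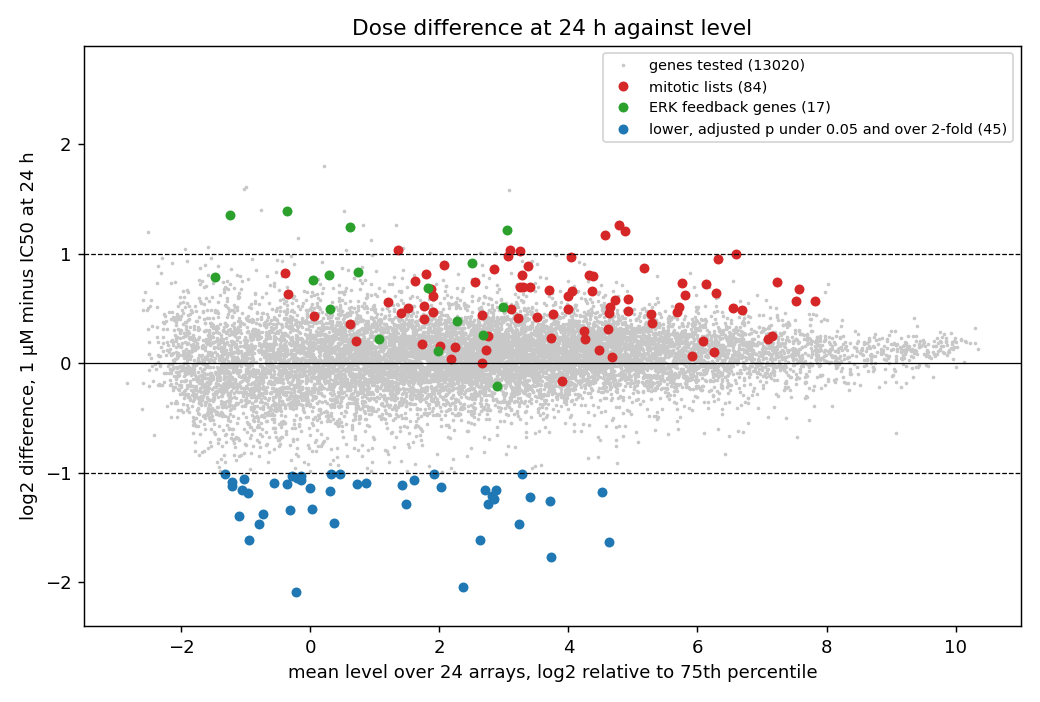
Log2 difference of 1 µM minus the IC50 dose at 24 h against the mean level of each of the 13020 tested genes over 24 arrays, relative to the 75th percentile. Dashed lines mark 2-fold. Red points are genes of the mitotic lists, green points ERK feedback genes and blue points the 45 genes called lower, of which 20 are among the dimmest 20% of genes.

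Some of the largest rises were in genes of no list. OTUD7A, a deubiquitinase gene, lay at -1.30, -1.10, -1.83 and -1.88 at the IC50 dose and at 0.21, 0.37, 0.12 and -0.36 at 1 µM, higher by 1.61 ± 0.17 (SE, adjusted p = 4.6e-06). The small nucleolar RNA SNORD46 rose by 1.81 ± 0.33 (SE, adjusted p = 0.00047) and SNORD71 by 1.59 ± 0.21 (SE, adjusted p = 3.7e-05). Of 129 tested genes named SNORA or SNORD, a group formed after these values were seen, 52 were higher and 3 lower, with a median of 0.28. Among all tested genes 20.1% were higher and 7.90% lower.

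Detection itself differed by dose. For 297 genes a probe was well above background on all 4 IC50 arrays and on no 1 µM array, and for 0 the reverse held. Of the 297, 84 had another probe above background on at least 1 array of each dose. The dimmest signal to pass the flag ranged from 13.1 to 15.2 over the IC50 arrays and from 17.6 to 20.2 over the 1 µM arrays, so that a gene of equal signal could pass at the IC50 dose alone. Against that higher floor 7 genes were lower by more than 2-fold. S100A5, a calcium-binding protein gene, was at least 3.20-fold lower at 1 µM. ANKRD11 and ZCRB1 were among the 7 although another probe of each was measured at both doses.

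Held against 72 h, the mitotic difference was there at both times. At 72 h 64 of the same 84 genes were higher at 1 µM than at the IC50 dose, beside 37.8% of all genes, and only 5 had a difference that changed between durations (adjusted p under 0.05, where 14.7% of 12738 genes changed towards 24 h and 14.9% towards 72 h, or 2.40% and 1.52% by more than 2-fold). PLK1 had a dose difference of 0.98 at 24 h and 1.01 at 72 h, CDC20 of 1.18 and 1.27, and TROAP of 1.27 and 0.91. The ERK feedback genes grew instead, from a median of 0.76 to 1.31, with 9 of 17 larger at 72 h and 1 larger at 24 h. The MYC and ribosome biogenesis list went from 0.30 to 0.77, with 18 of 29 larger at 72 h. Both doses kept their scanning session at both durations, but the IC50 arrays lay 2 on the first slide and 2 on the second at 24 h, and 1 and 3 at 72 h. The part of the slides in these changes was not tested.

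Single genes showed the widest change with time. GLDN, gliomedin, had a dose difference of -0.57 at 24 h and -4.78 at 72 h. That at 24 h missed the threshold (adjusted p = 0.073) and was under it once the replicate number entered as a block (adjusted p = 0.012). A2M, the protease inhibitor, went from -0.03 to -3.42 and GFAP, the astrocyte filament, from 0.20 to -2.90 at its brightest probe. Dimmer GFAP probes differed by -0.16 (adjusted p = 0.67) and -0.45 (adjusted p = 0.26) at 24 h. SLC38A3, a glutamine transporter, went from -0.32 (adjusted p = 0.063, or 0.019 with the block) to -3.01, and the semaphorin SEMA5B from -0.48 to -3.10. Of these, SEMA5B was called at 24 h (adjusted p = 0.034), a call lost in 6 of the 8 fits that left out 1 array. In the other direction SPINK1 went from 0.16 to 3.27, the matrix protease MMP3 from 0.40 to 2.96, SPANXB1 from 0.39 to 2.84, UCN2, a urocortin, from 0.51 to 2.81 and SPANXC from 0.44 to 2.72.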

How the data were processed

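RNA of U251 cells was hybridized to one-colour Agilent arrays. For each array the authors deposited Feature Extraction's background-subtracted spot intensity with its flags, not normalized between arrays (version 10.7.3.1 in the submitters' processing notes and 12.1.1.1 per the file headers). They also deposited a table of log2 values, which matched the values used here after median centring (99.97% within 0.01 over 58118 probes). Outlier spots were dropped, spots of a probe averaged on the log2 scale, and the array's 75th percentile subtracted. Of 35956 probes with a RefSeq accession 35032 received a symbol. Group means of all 24 arrays were fitted with limma 3.58.1 in R 4.3.3, and p-values adjusted with Benjamini-Hochberg over the 19857 tested probes (19213 for changes with duration). Same-numbered arrays of both doses deviated together (correlations between 0.290 and 0.442), and replicate numbers, read from the titles, were taken to pair the arrays. The fit reported leaves this pairing out of its SE and adjusted p. Fits with the replicate number as a block are given as alternatives. On simulated data 96% of 50 probes changed 1 log2 unit were called, and 64% of 50 changed 0.5. That simulation drew independent normal noise without slide, session or replicate effects, and changed few probes. Its shares therefore leave out those effects of the real arrays. The number of arrays limits precision. Named genes were the 12 highest and lowest, up to 5 per list by adjusted p, those the study names, the 5 largest changes with duration each way and all alpha and beta tubulins; exceptions are marked. A few genes that this rule names are not reported here. The comparison, its lists and rules were chosen with earlier results of these data known. Alternatives were other normalizations, filters, array sets, blocks, tests and each array left out.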

Additional observations from a re-analysis of the deposited data

Results flagged for a closer look

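A single array stood apart from the other 3 of its group in 7 of 252 groups checked, where chance would set apart about 1 in 20. These were replicate 4 of the IC50 dose for FOXM1 (4.34) and ACSBG1 (-0.48), replicate 3 for MCM10 (-0.21) and replicate 1 for GDF15 (5.30), and at 1 µM replicate 2 for TOP2A (3.97) and replicate 4 for ETV5 (0.26) and TUBD1 (1.76).

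The dose difference changed between 24 h and 72 h in 46 of 122 named genes (adjusted p under 0.05, limma), given as the log2 difference at 24 h minus that at 72 h. Of all tested genes 14.7% changed towards 24 h and 14.9% towards 72 h, and 10 of the 46 were chosen for the size of this change. Among signalling and early genes it was smaller at 24 h in ETV5 (-0.73), EPHA2 (-0.79), IER3 (-2.02), HBEGF (-1.12), EDN1 (-0.99), CXCL2 (-1.83), CXCL3 (-2.25) and IL11 (-1.73). ATF3 (0.82) and BTG2 (1.93) fell further at 72 h. Growth genes with a smaller difference at 24 h were MYC (-1.13), CCND1 (-0.86), ORC6 (-0.78), FOXM1 (-0.38), NOP16 (-0.50), LYAR (-0.85), RRP9 (-0.54) and GNL3 (-0.78).

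In lipid genes the change was 0.73 in SREBF1, -1.08 in MGLL, 0.77 in ACACB and 0.52 in CPT1B. In tubulins it was 0.47 in TUBB2B, 0.51 in TUBB3 and 0.48 in TUBA4A. In apoptosis genes it was 1.37 in BMF, 0.63 in BCL2L11 and -0.65 in PMAIP1, and in the receptor GPER1 it was 0.52. The matrix and TGF-beta genes CCN2, PLAUR and COL16A1 changed by -0.998, -1.30 and 0.52, and the stress genes HSPA8, ATF4, SLC6A9 and GDF15 by -0.33, -0.40, -0.93 and -0.80.

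The genes chosen for the largest change were GLDN (4.21), A2M (3.39), GFAP (3.09), SLC38A3 (2.69) and SEMA5B (2.62) on one side, and SPINK1 (-3.10), MMP3 (-2.56), SPANXB1 (-2.45), UCN2 (-2.30) and SPANXC (-2.28) on the other.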

How the results depend on the processing

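Counts past 2-fold between the doses moved most without the fold threshold, and next without the filter on dim probes. Genes higher past 2-fold numbered 29, and 15 with the 50th percentile, 16 with spike-in scaling, 7 with normexp, 45 with the filter on 1 group, 740 without a filter and 2622 with no fold threshold. Lower genes numbered 45, and in the same order without spike-in scaling 81, 23, 159, 243 and 1028, and 75 through any probe. By adjusted p alone, 2622 higher genes became 392 (50th percentile), 70 (spike-in), 1244 (normexp) and 8276 (no filter), and 1028 lower genes became 278 (spike-in), 1589 (cyclic loess) and 562 (the methods' t-test, Benjamini-Hochberg). Changes with duration past 2-fold, 306 and 194, became 142 and 102 (normexp), 462 and 292 (1-group filter) and 1876 and 1897 (no fold threshold). The cause was not tested.

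Of the lists, replication and G1/S counted 22 higher, and 13 with quantile, 3 with 50th percentile, 9 with loess, 6 with normexp, 14 with the slide block, 7 with the t-test and 1 with spike-in scaling. MYC and ribosome biogenesis counted 18, and 3, 9, 8, 10 and 1 with 50th percentile, loess, normexp, t-test and spike-in. ERK feedback counted 14, and 9 and 5 with 50th percentile and spike-in. Spindle genes counted 18 with the 50th percentile and 6 with spike-in scaling, under which mitotic entry counted 7 and kinesins 2. Medians moved to 0.11, 0.15 and 0.13 in G1/S (50th percentile, normexp, spike-in), 0.14, 0.20, 0.16 and 0.16 in MYC (50th percentile, loess, normexp, spike-in), and 0.60 and 0.45 in ERK feedback (50th percentile, normexp). The fatty acid median turned to -0.048 (50th percentile) and -0.021 (spike-in).

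Genes that turned sign were near 0 and not called in the fit reported. With quantile TUBA1A was -0.0080 and TUBA1B -0.034. With the 50th percentile CDK1 was -0.040, UBE2C -0.062, STARD4 -0.10, FADS1 -0.017, TUBB6 -0.019, TUBA1A -0.092, TUBA1B -0.12 and SPINK1 -0.0017. With loess UBE2C was -0.0064, TUBA1A -0.050 and TUBA1B -0.087. With normexp UBE2C was -0.039, STARD4 -0.033, FADS1 -0.0062, TUBA1A -0.020, TUBA1B -0.0085, TUBA3C 0.051 and TUBA8 0.037. With spike-in scaling CDK1 was -0.013, UBE2C -0.035, STARD4 -0.076, TUBA1A -0.065 and TUBA1B -0.088.

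Leaving out 1 of the 8 arrays in turn gave 18 to 45 higher and 32 to 59 lower genes past 2-fold (18 without replicate 1 of 1 µM, 45 without replicate 4 of 1 µM), 1961 to 2586 and 648 to 1063 by adjusted p alone (648 without replicate 4 of the IC50 dose), and 10 to 25 higher genes in G1/S. Sterol genes called went from 2 to between 1 and 5, and fatty acid genes from 1 to between 0 and 2. The ranges were 19 to 23 genes in mitotic entry, 28 to 35 in spindle, 11 to 12 in kinesins, 14 in ERK feedback and 12 to 19 in MYC. Ranges that crossed 0 were -0.20 to 0.15 in A2M, -0.047 to 0.40 in GFAP, -0.032 to 0.44 in MVD, -0.082 to 0.19 in STARD4, -0.015 to 0.085 in TUBA1B, -0.091 to 0.0099 in TUBB2A and -0.044 to 0.037 in TUBB8.

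With the replicate block, CENPF (adjusted p = 0.038), LSS (0.035), GLDN (0.012) and SLC38A3 (0.019) gained a call, sterol genes called went from 2 to 4 and fatty acid genes from 1 to 2, and this block changed no other call among the results given here. Within each duration the block also called GPER1 (adjusted p = 0.040), PHLDA1 (0.039), AURKB (0.0062), KIF24 (0.019) and TUBB6 (0.041). Of 93 named genes called, 43 lost the call with spike-in scaling, 19 with the 50th percentile, 16 with the t-test after adjustment, 8 each with normexp and the slide block, and 1 to 10 with 1 array left out. Spike-in scaling and the block within each duration were chosen after seeing the data.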

Other observations

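Of 26 TGF-beta and YAP targets, 10 were higher at 1 µM and 1 lower, with a median of 0.27, where 20.1% of all tested genes were higher and 7.90% lower. The matricellular genes CCN2 and CCN1 rose by 0.91 ± 0.16 (SE, adjusted p = 0.00037) and 0.73 ± 0.14 (SE, adjusted p = 0.0010). PLAUR, the urokinase receptor, rose by 0.68 ± 0.13 (SE, adjusted p = 0.00094), and the EGF family ligand NRG1 by 0.66 ± 0.14 (SE, adjusted p = 0.0016). The collagen gene COL16A1 fell by 0.33 (adjusted p = 0.0081).

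Of 18 heat shock genes 8 were higher and 0 lower, beside 20.1% and 7.90% of all tested genes. The chaperone HSPA8 led them and rose by 0.62 ± 0.08 (SE, adjusted p = 3.3e-05). Of 28 ATF4 targets 8 were higher and 2 lower, shares near those of all tested genes. ATF4 rose by 0.41 (adjusted p = 0.00074), the glycine transporter SLC6A9 by 0.48 (adjusted p = 0.0012) and the stress cytokine GDF15, a p53 target, by 0.60 (adjusted p = 0.0038). Of 27 interferon and antigen presentation genes 1 was higher and 3 were lower, beside 20.1% and 7.90% of all tested genes. IFIT2, among the 3, fell by 0.58 (adjusted p = 0.027). TUBD1, delta tubulin, rose by 0.61 ± 0.06 (SE, adjusted p = 4.6e-06).

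Among 2611 tested probes without a symbol, 28 were higher and 86 lower past 2-fold, beside 0.223% and 0.346% of the genes with a symbol. The median dose difference of genes in order of brightness, in 5 equal bins from dim to bright, was -0.02, 0.04, 0.06, 0.09 and 0.10. Of 10 E1A spike-in controls 7 were well above background on all 8 arrays, with differences from -0.03 to 0.30 and a median of 0.15.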
